A study of Homo sapiens with 9 samples.

Results

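The mRNA abundance of 10 genes of the BCL2 family was examined in ES-2 cells depleted of the mRNA-binding protein IGF2BP1 or of the transcription factor SRF. The members are BCL2A1, BCL2, BCL2L1, MCL1, BAX, BAK1, BCL2L11, PMAIP1, BBC3 and BID, and all 10 were found by symbol among the 58174 genes in both deposited tables, of which 19799 are protein-coding. BCL2A1 was chosen by its fold changes against the control, which had opposite directions in the depletions, so its values are given as a description with no test in any comparison. The other 9 members are the most familiar relatives of BCL2A1 and were tested in the fit over all genes.

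ES-2 is an established cell line from an ovarian cancer. The cells received control siRNAs (siC), an siRNA pool against IGF2BP1 (siIGF2BP1) or an siRNA pool against SRF (siSRF), and total RNA was sequenced from 3 libraries per group, 72 h after transfection. All groups are the same unmodified line in the same medium, so by the labels the groups differ only in the siRNA, and the depletions are partial. Nothing in the labels says that the 3 libraries of a group came from separate cultures, so p-values measure the spread between these libraries, which may be technical. In RNA from whole cultures, fewer cells that express a gene and less of its RNA per cell cannot be told apart.

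Proteins of the BCL2 family decide whether the outer mitochondrial membrane is opened during apoptosis. BAX and BAK1 form the pores that release cytochrome c. The guardians BCL2, BCL2L1 (BCL-XL), MCL1 and BCL2A1 (BFL1) hold these pore formers and the activating BH3-only proteins in check. The BH3-only proteins BCL2L11 (BIM), BBC3 (PUMA), PMAIP1 (NOXA) and BID sense stress and free or activate the pore formers, and NOXA is known for its preference for MCL1 and BFL1. BCL2A1 is best known from leukocytes, where NF-kB drives its transcription, and from melanoma. MCL1 and NOXA proteins turn over quickly, so their mRNA levels do not stand for the protein.

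Short stretches of sequence at the members are shown because SRF binds CArG boxes in promoters and IGF2BP1 is known for shielding mRNAs from microRNAs such as let-7. The RefSeq tables (GRCh38.p14) held 14 promoters for 9 of the 10 members, and MCL1 had no entry. Each promoter runs from 250 bases before to 50 bases after a transcript start, 5′ to 3′. The promoter of BCL2A1 is at chr15:79971147-79971446 and that of BCL2 at chr18:63319720-63320019, both on the minus strand. Capitals mark a TATA box (TATAAA or TATATA) in the first and a CArG box in the second.
BCL2A1 promoter: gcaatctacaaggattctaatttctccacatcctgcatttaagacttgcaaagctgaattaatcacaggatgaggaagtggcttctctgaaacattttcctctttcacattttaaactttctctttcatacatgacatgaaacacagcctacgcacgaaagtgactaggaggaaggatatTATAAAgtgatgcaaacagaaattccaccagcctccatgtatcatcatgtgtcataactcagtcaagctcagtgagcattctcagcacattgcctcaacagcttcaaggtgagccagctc
BCL2 promoter: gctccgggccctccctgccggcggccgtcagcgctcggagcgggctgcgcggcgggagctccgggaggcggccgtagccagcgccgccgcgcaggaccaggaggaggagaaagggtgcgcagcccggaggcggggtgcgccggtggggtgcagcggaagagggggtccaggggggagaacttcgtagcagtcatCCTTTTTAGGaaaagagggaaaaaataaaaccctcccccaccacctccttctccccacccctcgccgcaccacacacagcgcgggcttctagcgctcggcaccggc
The match in BCL2A1 began 70 bases before the start (offset -70), and TATA box letters were found in 13.67% of all 35116 promoters of this length, on either strand. The CArG box in BCL2 lay at offset -56 and was the only one among the 14 promoters, against 1.29% of all promoters. No promoter of a member held an NF-kB motif, which 5.91% of all promoters held, or a CRE (TGACGTCA), which 1.85% held. BBC3 held an AP-1 site (TGACTCA or TGAGTCA) at offset -113, a match found in 4.95% of promoters. BAX held 4 E-boxes (CACGTG) between offsets -138 and -14, and an E-box was also found at BBC3 and BID and in 7.26% of all promoters. An ETS motif (CCGGAAGT) lay at offset 9 in BCL2L1, against 4.14% of all promoters. Such matches are letters in a window, not binding sites.

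In 3′UTRs, the match to the let-7 seed (CTACCTC, sense strand only) was found in 1 of the 10 members, BCL2L1. Of 12338 3′UTRs of expressed protein-coding genes, 10.8% held it. The microRNA from RefSeq is shown with its seed, bases 2 to 8, in capitals. The site at chr20:31664992-31665017 (minus strand, GRCh38) is shown with the seed match in capitals.
let-7a-5p: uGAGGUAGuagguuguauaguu
BCL2L1 3′UTR site: cccagggtcttccCTACCTCaggcag
The AU-rich heptamer TATTTAT, a motif of unstable mRNAs, occurred 3 times each in the 3′UTRs of MCL1 and PMAIP1, 2 times in BCL2L11 and 1 time each in BCL2 and BCL2L1. It was found in 36.4% of the 12338 3′UTRs. The 3′UTR of BCL2A1 is short, with 175 bases, and held neither motif.

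Values are FPKM, reads scaled by gene length and library size, on one scale for all libraries. The reads assigned to genes numbered 6421764 to 9416175 in a library. IGF2BP1 mRNA stood at 12.8 ± 0.689 FPKM in siC, 4.11 ± 0.0846 in siIGF2BP1 and 14.2 ± 0.455 in siSRF (SD, n = 3). SRF mRNA stood at 14.5 ± 1.28 in siC and 1.47 ± 0.145 in siSRF, and also fell upon IGF2BP1 depletion, to 6.01 ± 0.714 FPKM (limma-trend, adjusted p = 0.00111). The siIGF2BP1 libraries are therefore depleted of IGF2BP1 to 32.2% and of SRF to 41.3% of the control mean, and the siSRF libraries of SRF to 10.1%. Of 8 leukocyte markers, 3 (PTPRC, CD3E and MS4A1) were at 0 in all 9 libraries and none averaged 1 FPKM. The summed level of these markers was 0.276 to 0.647 FPKM in siC, 0.552 to 1.22 in siIGF2BP1 and 0.0544 to 0.26 in siSRF. The siC and siIGF2BP1 sums overlapped and rest on few reads, and the markers differed in direction. CSF1R had 6, 33 and 6 reads in siC, siIGF2BP1 and siSRF, and LYZ had 8, 0 and 1. Mesenchymal markers (VIM, FN1 and CDH2) were abundant, carried by vimentin, with summed levels of 1082 to 1100 FPKM in siC, 884 to 965 in siIGF2BP1 and 870 to 919 in siSRF. FN1, the fibronectin gene, fell by 0.80 in siIGF2BP1 and by 1.36 in siSRF on the log2 scale (limma-trend, adjusted p = 0.00267 and 0.000329). VIM fell by 0.31 in siSRF (limma-trend, adjusted p = 0.0091). CDH2 went the other way and rose by 0.66 in siIGF2BP1 (limma-trend, adjusted p = 0.00282). Its rise of 0.23 in siSRF was not called (limma-trend, adjusted p = 0.0731). The FN1 call in siIGF2BP1 held only without siIGF2BP1 replicate 2, and the VIM call was lost without any 1 library (adjusted p of at most 0.014 and 0.0467). Of 8 epithelial and ovarian carcinoma markers, only KRT8 and KRT18 averaged 1 FPKM or more, and MUC16 was at 0 in all libraries. Their sum was 50.9 to 55.1 FPKM in siC, 47.6 to 61.4 in siIGF2BP1 and 87.7 to 94.3 in siSRF. KRT18 rose 1.88-fold in siSRF (limma-trend, adjusted p = 0.000329), and KRT8 rose 1.46-fold in siIGF2BP1 (adjusted p = 0.00455, lost without any 1 library). The part of these marker shifts in the values of the BCL2 family was not tested.

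BCL2A1 mRNA, the transcript for which the group was examined, was low in control cells, lower still upon IGF2BP1 depletion and abundant upon SRF depletion. The 3 siC libraries held 3.76, 2.84 and 2.41 FPKM of BCL2A1. In siIGF2BP1 the values were 0.24, 0.504 and 0.325 FPKM. The siSRF libraries held 12.4, 11.4 and 11.5 FPKM. The 3 groups do not overlap, and the lowest siSRF library is above the highest siC library. The opposite directions of the fold changes were used for the choice, so this separation is no support for them. The low group rests on few reads, with 2, 4 and 3 reads of BCL2A1 in siIGF2BP1, against 27, 21 and 19 in siC and 96, 113 and 92 in siSRF.

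On the log2(FPKM + 0.1) scale BCL2A1 differed from siC by -2.78 (SE 0.295, 95% interval -3.50 to -2.07) in siIGF2BP1 and by 1.95 (SE 0.159, 1.57 to 2.34) in siSRF. This scale understates changes of low genes. The reads of the 3 libraries together gave a ratio of 0.118 in siIGF2BP1 against siC, with an exact 95% interval of 0.0518 to 0.238. For siSRF against siC the ratio was 3.92 (3 to 5.19). The 33.2-fold distance between siSRF and siIGF2BP1 had an interval of 17.2 to 73.3. These intervals cover counting error only, since the reads were pooled over the libraries of a group, and leave out the spread between libraries. Reads without molecular identifiers are not independent molecules, so the intervals may also understate the counting error. BCL2A1 has 2 exons in its main transcript, lies on chromosome 15 (79960892 to 79971196, minus strand, GRCh38), and no annotated gene overlaps it.

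**Figure D1:**
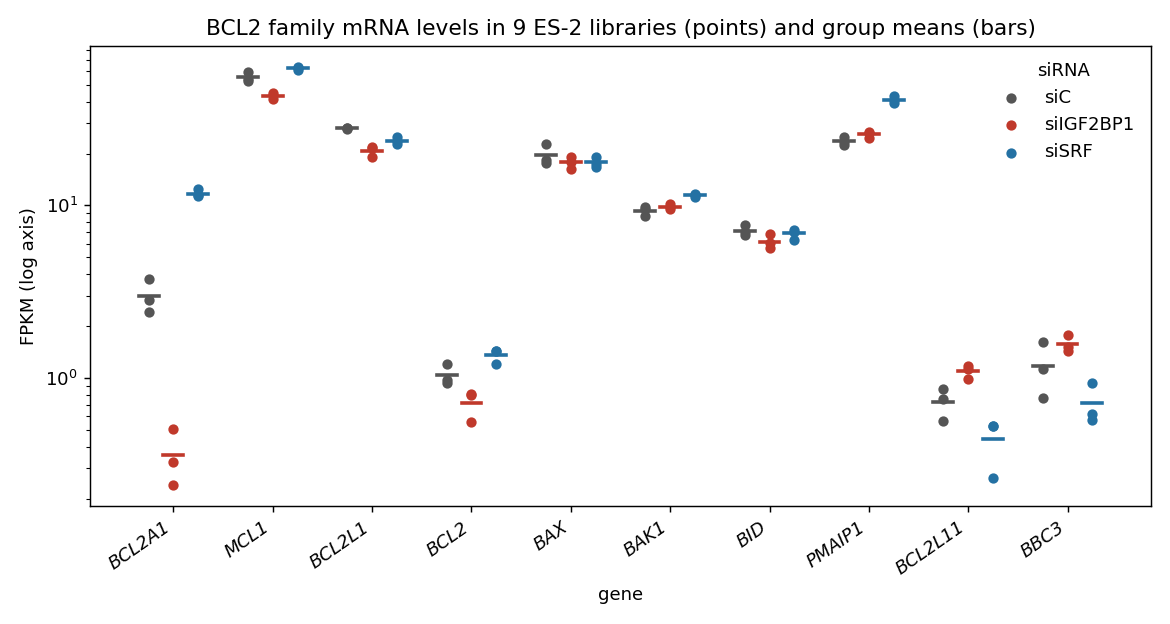
FPKM of the 10 members on a log axis in each of the 9 libraries (points, coloured by siRNA) with the mean of 3 libraries as a bar. The widest separation of groups is that of BCL2A1, between 0.24 and 0.504 FPKM in siIGF2BP1 and between 11.4 and 12.4 in siSRF, while BAX, at 16.3 to 22.6 FPKM, overlaps among all groups.

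The position of BCL2A1 among the members changed with the siRNA. In siC it ranked 7 of 10 by mean FPKM, below BID (6.75 to 7.66 FPKM) and above BBC3 (0.762 to 1.62), overlapping neither. In siIGF2BP1 it was at rank 10, below BCL2 (0.552 to 0.809). Upon SRF depletion it stood at rank 5, where its libraries overlapped those of BAK1 (11.2 to 11.7 FPKM). MCL1 ranked highest in every group. BCL2L1 ranked above PMAIP1 in siC, with 27.6 to 28.2 against 22.5 to 24.9 FPKM, and below it in siIGF2BP1 and siSRF. BAX overlapped PMAIP1 in siC and BCL2L1 in siIGF2BP1, so these neighbours in the order did not differ beyond their spread.

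Among the tested guardians, BCL2L1 fell upon IGF2BP1 depletion and MCL1 differed between the depletions. BCL2L1, which encodes BCL-XL, held 27.6, 28.2 and 28.1 FPKM in siC and 21.9, 19 and 21.4 in siIGF2BP1. The highest siIGF2BP1 library was below the lowest siC library. The log2 fold change was -0.43 (SE 0.0629, limma-trend, adjusted p = 0.007), which made BCL2L1 the 1 of 9 tested members called at an adjusted p of at most 0.01. Over all genes tested, 3.57% were called lower and 3.55% higher in this comparison. The call was lost when any single library was left out, with adjusted p-values of 0.0124 to 0.0284. In siSRF the BCL2L1 values were 23.6, 24.8 and 22.7 FPKM, also below every siC library, with a log2 fold change of -0.24 that missed the threshold (limma-trend, adjusted p = 0.0134). Once trends along GC content and gene length were removed, that difference was -0.08. ABALON, an RNA transcribed antisense across 1735 exonic bases of BCL2L1, was listed at 0.062 to 0.411 FPKM.

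MCL1, the guardian with the highest mRNA level, held 54.4, 52.4 and 59.4 FPKM in siC. The siIGF2BP1 libraries stood at 44.7, 41.5 and 43.9 FPKM, all below siC. The siSRF libraries stood at 62.5, 60.9 and 63.6 FPKM, all above siC. Neither difference from siC passed the threshold in limma-trend, with -0.35 in siIGF2BP1 (SE 0.0601, adjusted p = 0.0116) and 0.17 in siSRF (SE 0.0548, adjusted p = 0.071). The direct comparison of siIGF2BP1 with siSRF passed, with a log2 difference of -0.52 (SE 0.0406, limma-trend, adjusted p = 0.000241), lower in 3 of 3 siIGF2BP1 libraries. It was called in all 6 fits with a library left out. In siIGF2BP1 against siC, limma-voom on the recovered reads called MCL1 as well (adjusted p = 5.34e-05). The lncRNA ADAMTSL4-AS1 shares 328 exonic bases of the same strand with MCL1 and was listed at 0.348 to 1.44 FPKM.

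BCL2, the founding guardian, was a low transcript in ES-2 cells. A CArG box was found only in BCL2 among the 9 members with a promoter entry, and MCL1 could not be searched. It held 0.94, 0.976 and 1.21 FPKM in siC, 0.809, 0.792 and 0.552 in siIGF2BP1 and 1.44, 1.44 and 1.2 in siSRF. The siIGF2BP1 libraries were below all others, while siC and siSRF overlapped. None of the limma-trend tests called it, with adjusted p-values of 0.244 in siIGF2BP1 and 0.24 in siSRF against siC. Between siIGF2BP1 and siSRF its log2 difference was -0.85 (SE 0.222, limma-trend, adjusted p = 0.0294), and limma-voom called it (adjusted p = 7.46e-06).

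Taken as a sum of FPKM over MCL1, BCL2L1, BCL2L2 (BCL-W, a further guardian), BCL2A1 and BCL2, guardian mRNA amounted to 93.5 ± 3 in siC, 69.4 ± 2.79 in siIGF2BP1 and 105 ± 0.86 in siSRF (SD, n = 3). BCL2A1, whose values were chosen, is part of this sum, and its level sets the distance between siC and siSRF. Without BCL2A1 the sum was 90.5 ± 3.31 in siC, 69.1 ± 2.92 in siIGF2BP1 and 93.5 ± 0.338 in siSRF, where siC (87.8 to 94.2) and siSRF (93.2 to 93.9) overlapped and siIGF2BP1 (65.9 to 71.6) lay below both. BCL2A1 contributed 3.22% ± 0.767 of the full sum in siC. Its share was 0.519% ± 0.218 in siIGF2BP1 and 11.1% ± 0.422 in siSRF. The share of MCL1 was near 60% in all groups, with 57.8% to 61.5% in siC, 62.2% to 62.5% in siIGF2BP1 and 58.3% to 60.5% in siSRF. BCL2L1 made up 29.1% to 31.1% in siC and 21.6% to 23.7% in siSRF. The sums are mRNA levels per length and say nothing of protein.

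**Figure D2:**
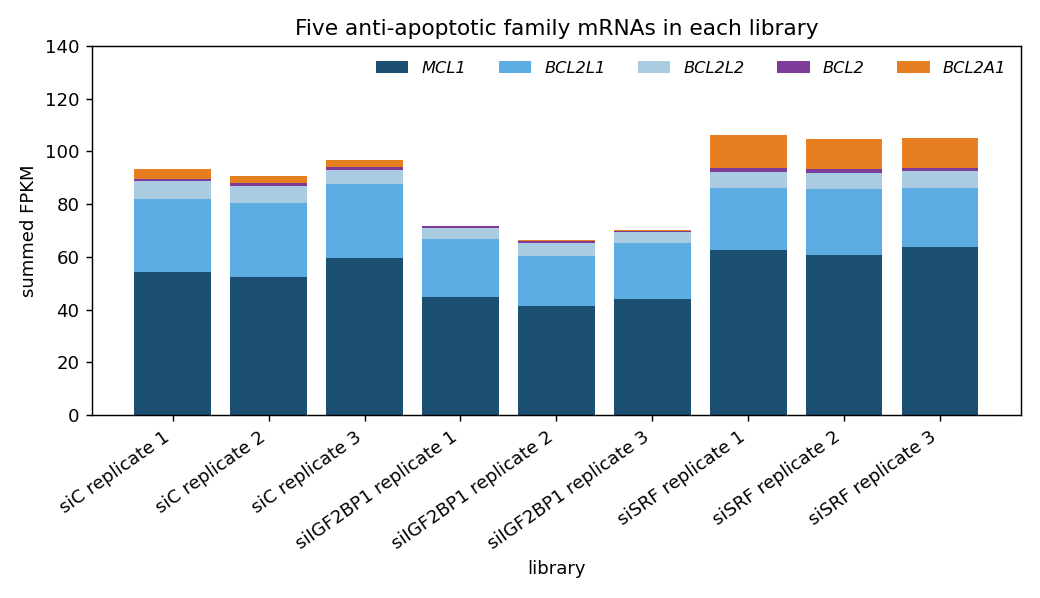
Summed FPKM of MCL1, BCL2L1, BCL2L2, BCL2 and BCL2A1 in each library, stacked by gene from an axis that starts at 0, with BCL2A1 on top. The 3 siIGF2BP1 libraries reach 66.4 to 71.8 FPKM, the siC libraries 90.6 to 96.6 and the siSRF libraries 105 to 106, and the BCL2A1 segment is visible mainly in siSRF. Below that segment, siC (87.8 to 94.2) and siSRF (93.2 to 93.9) overlap.

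Neither pore former was called by limma-trend in any comparison. BAX held 18.3, 17.6 and 22.6 FPKM in siC, 17.9, 16.3 and 19.2 in siIGF2BP1 and 16.7, 17.5 and 19.2 in siSRF. The groups overlapped, and the interval of the log2 difference between siIGF2BP1 and siC ran from -0.40 to 0.15, that between siSRF and siC from -0.385 to 0.14. BAK1 held 8.7, 9.51 and 9.75 FPKM in siC, 9.85, 10.2 and 9.55 in siIGF2BP1 and 11.7, 11.2 and 11.5 in siSRF. All siSRF libraries of BAK1 lay above all others, by 0.30 on the log2 scale against siC (SE 0.062, limma-trend, adjusted p = 0.0171), which missed the threshold. With those trends along GC content and length removed, the BAK1 difference was 0.49 (limma-trend, adjusted p = 0.00157). The processed pseudogene BAK1P1 drew 5 to 9 reads in siC and siIGF2BP1 and 9, 22 and 21 in siSRF, against 127 to 226 reads on BAK1, and reads of the pair may have been split between them.

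Of the BH3-only members, PMAIP1 rose upon SRF depletion. PMAIP1, which encodes NOXA, held 23.4, 22.5 and 24.9 FPKM in siC and 26.6, 24.7 and 26.3 in siIGF2BP1. The siSRF libraries held 43.3, 40.8 and 39 FPKM, all above every other library. The log2 fold change in siSRF was 0.80 (SE 0.0592, limma-trend, adjusted p = 0.000553), and the call held in all 6 fits with a library left out. PMAIP1 was the 1 of 9 tested members called in siSRF, where 5.34% of all genes were called lower and 6.85% higher. In siIGF2BP1 the log2 fold change was 0.13, with an interval of -0.003 to 0.27 (limma-trend, adjusted p = 0.18). The siIGF2BP1 libraries differed from siSRF by -0.66 (SE 0.0526, limma-trend, adjusted p = 0.000258). With MCL1, PMAIP1 was thus 1 of 2 tested members called in the direct comparison, both lower in siIGF2BP1, where 11.2% of all genes were called lower and 8.82% higher. PMAIP1 and BCL2A1, a target of NOXA, both had their highest mRNA levels in siSRF.

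BCL2L11 and BBC3 had low levels, and in both the siSRF mean was below and the siIGF2BP1 mean above the siC mean. BCL2L11, which encodes BIM, held 0.864, 0.751 and 0.561 FPKM in siC, 1.18, 0.988 and 1.12 in siIGF2BP1 and 0.526, 0.264 and 0.53 in siSRF. The 3 groups did not overlap, which is the reverse order of BCL2A1, but the counts were 16 to 63 reads per library and limma-trend did not call it in any comparison. The log2 difference between siIGF2BP1 and siSRF was 1.19 (SE 0.302, limma-trend, adjusted p = 0.0264). The antisense gene MIR4435-2HG shares 727 exonic bases with BCL2L11 and held 7.36 to 7.99 FPKM in siC, 14.3 to 15.4 in siIGF2BP1 and 8.66 to 9.37 in siSRF. The study's methods name a directional library kit, but the strand setting of the counting is not given in the sources used here. Reads on the shared bases can therefore not be assigned to one gene of the pair.

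BBC3, which encodes PUMA, a p53 target, held 0.762, 1.62 and 1.13 FPKM in siC, 1.44, 1.51 and 1.78 in siIGF2BP1 and 0.573, 0.621 and 0.938 in siSRF. Only siIGF2BP1 and siSRF were separated. Their log2 difference was 1.07 (SE 0.238, limma-trend, adjusted p = 0.0159). By limma-voom, which weighs genes by their read number, BCL2L11 (adjusted p = 2.12e-05) and BBC3 (adjusted p = 0.000709) were called in this comparison. BID, which links death receptors to the mitochondrion, held 6.75 to 7.66 FPKM in siC, 5.64 to 6.82 in siIGF2BP1 and 6.34 to 7.23 in siSRF, with overlapping groups and no call.

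**Figure D3:**
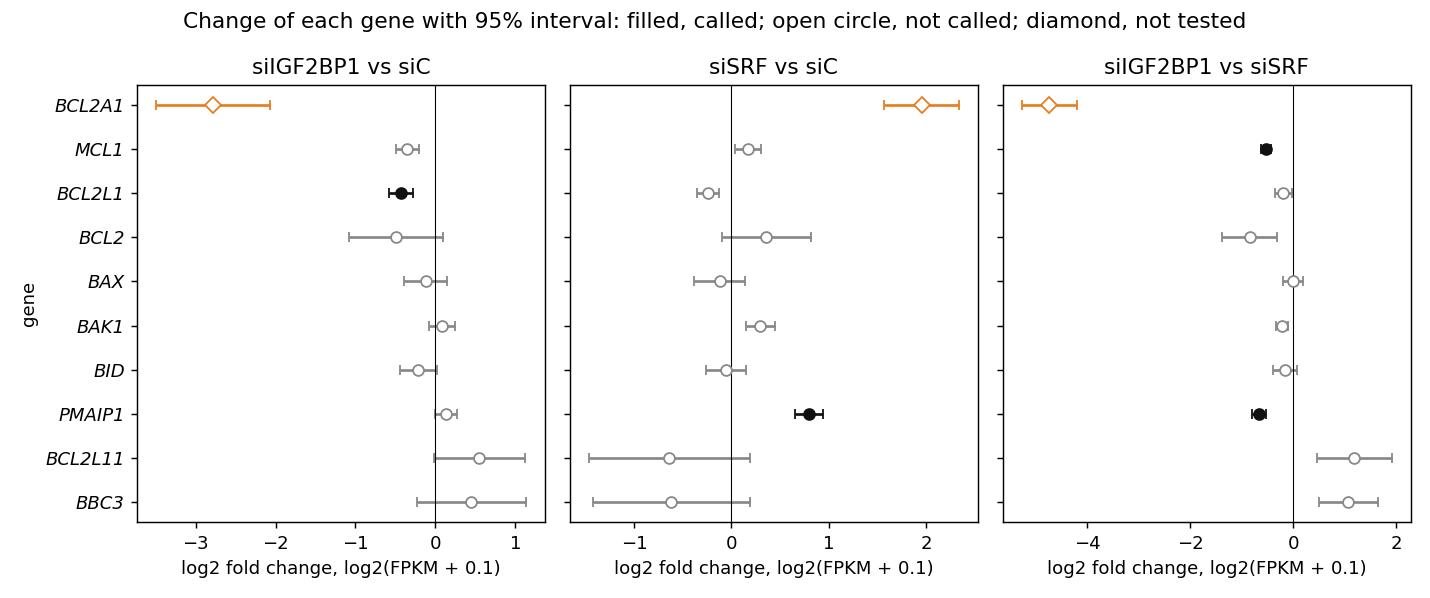
Log2 fold change of the 10 members with 95% intervals in each comparison (horizontal axes, differing in range between panels). Filled circles passed an adjusted p of at most 0.01, open circles did not, and the diamond marks BCL2A1, which was not tested. BCL2A1 stands at -2.78, 1.95 and -4.74, and every other member within 1.19 of 0.

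Counted over the 9 tested members, the libraries of the groups did not overlap for 4 in siIGF2BP1 against siC (BCL2, BCL2L1, MCL1 and BCL2L11), where this held for 35.6% of all genes. In siSRF against siC it held for 5 members (BCL2L1, MCL1, BAK1, BCL2L11 and PMAIP1), and for 39.9% of all genes. Between siIGF2BP1 and siSRF it held for 7 members, all but BAX and BID, and for 46.1% of all genes. The two-sided exact permutation test of each of these separations gave p = 0.1, the smallest p that 3 against 3 libraries allow. By limma-voom, 2 members were called in siIGF2BP1 (BCL2L1 and MCL1), where 17.1% of all genes were called in either direction, and 1 in siSRF (PMAIP1), where 23.4% were. Between the depletions limma-voom called 5 members (BCL2, MCL1, BCL2L11, PMAIP1 and BBC3), against 31.0% of all genes. The median log2 fold change of the 9 members was -0.12 in siIGF2BP1 and -0.06 in siSRF, where all genes tested had medians of 0.02 and 0.01. The comparisons against siC share their control libraries.

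Among 12 further BCL2 family genes, 4 (BCL2L10, BCL2L14, BIK and HRK) were too low to be tested. Upon IGF2BP1 depletion 3 of 8 rose, against 3.55% of all genes, and the other 5 were not called. BMF, a BH3-only gene linked to anoikis, was at 0.417, 0.378 and 0.355 FPKM in siC, 1.82, 1.56 and 1.82 in siIGF2BP1 and 0.257, 0.161 and 0.0498 in siSRF. The BMF libraries of siIGF2BP1 lay above all others, with a log2 fold change of 1.92 against siC (SE 0.208, limma-trend, adjusted p = 0.00244). This call was lost without siC replicate 2 or any siIGF2BP1 library, with an adjusted p of at most 0.0193. BMF was also called in siIGF2BP1 against siSRF, by 2.92 (SE 0.378, limma-trend, adjusted p = 0.00178), while its siSRF difference from siC was not called (-1.003, limma-trend, adjusted p = 0.167). BMF thus had the reverse order of BCL2A1 in these groups.

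The mitophagy receptors BNIP3L and BNIP3 rose in both depletions. BNIP3L rose by 0.94 in siIGF2BP1 (SE 0.0501, limma-trend, adjusted p = 0.000251) and by 0.77 in siSRF (SE 0.0455, adjusted p = 0.000349). BNIP3 rose by 0.26 in siIGF2BP1 (SE 0.0408, adjusted p = 0.00883, lost without any 1 library) and by 0.675 in siSRF (SE 0.0467, adjusted p = 0.000495). In siSRF BCL2L13, another mitophagy receptor, rose by 0.49 and BOK, a pore former related to BAX, fell by 1.235 on the log2 scale (adjusted p = 0.00262). The BCL2L13 call was lost without siC replicate 1 or siSRF replicates 2 or 3, and that of BOK without siC replicates 2 or 3 or siSRF replicates 2 or 3, with adjusted p-values of at most 0.014 and 0.0119. BOK held 4.39 to 5.65 FPKM in siC, 2.89 to 3.35 in siIGF2BP1 and 1.74 to 2.31 in siSRF. BCL2L2 was at 6.14 ± 0.601 FPKM in siC, 4.23 ± 0.322 in siIGF2BP1 and 6.12 ± 0.121 in siSRF (SD, n = 3), and shares exons with a readthrough gene into PABPN1.

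The wider cell death pathway was followed by 6 lists of genes, chosen with earlier results of these data known. Over all genes tested, 3.57% were called lower and 3.55% higher in siIGF2BP1, and 5.34% lower and 6.85% higher in siSRF. Of the 10 genes of the apoptosome and mitochondrial release, 1 fell in siIGF2BP1, namely CYCS, which encodes cytochrome c and held 38.3 to 48.5 FPKM in siC and 27.4 to 29.8 in siIGF2BP1. Its call was lost without siC replicates 1 or 2 or any siIGF2BP1 library (adjusted p of at most 0.0357). In siSRF 1 gene of this list rose, HTRA2, by 0.36, a call that held only without siC replicate 3 (adjusted p of at most 0.0233 without the others). The list medians were -0.28 and 0.01.

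Of 6 tested inhibitors of apoptosis, 2 rose in siSRF (BIRC3 and BIRC2), against 6.85% of all genes. There 1 fell (BIRC5), against 5.34% of all genes, and 3 were not called (XIAP, NAIP and BIRC6). The 3 calls held with any library left out. BIRC3, an NF-kB target encoding cIAP2, held 3.34, 2.96 and 3.51 FPKM in siC, 2, 2.01 and 1.88 in siIGF2BP1 and 11.7, 10.5 and 11.9 in siSRF. Its groups do not overlap, in the same order as those of BCL2A1. The log2 fold change of BIRC3 was 1.77 in siSRF (limma-trend, adjusted p = 0.000273). BIRC5, which encodes survivin and follows the cell cycle, fell in both depletions, by 0.485 in siIGF2BP1 and by 0.52 in siSRF. The siIGF2BP1 call of BIRC5 was lost without any 1 library (adjusted p of 0.0116 to 0.0284).

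Of 10 tested death receptors and adaptors, 2 fell in siIGF2BP1 (3.57% of all genes) and 3 rose in siSRF (6.85% of all genes). The TRAIL decoy receptor gene TNFRSF10D stood out, with 20.4 to 23.1 FPKM in siC, 12.4 to 12.6 in siIGF2BP1 and 90.8 to 92.3 in siSRF. It fell by 0.80 (limma-trend, adjusted p = 0.000678) and rose by 2.06 (limma-trend, adjusted p = 3.63e-05), and both calls held with any library left out. TNFRSF10A, a TRAIL receptor gene, fell in siIGF2BP1 by 0.73, and TNFRSF10B, its close relative, rose in siSRF by 0.52. The TNFRSF10A call held only without siC replicate 3 (adjusted p of at most 0.0291 without the others). CFLAR, which encodes the caspase-8 inhibitor FLIP, rose in siSRF by 0.67, a call lost without any 1 library (adjusted p of 0.0142 to 0.032). The list medians were 0.04 and 0.235, where all genes tested had medians of 0.02 and 0.01.

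Of 15 tested genes of p53 and its targets, 2 fell and 2 rose in siIGF2BP1 (3.57% and 3.55% of all genes). In siSRF 1 fell and 3 rose (5.34% and 6.85% of all genes). The study describes ES-2 as a line with mutated p53, which limits what the levels of p53 targets say of p53 here. CDKN1A, the p21 gene, fell in siIGF2BP1 by 1.12 (limma-trend, adjusted p = 0.00997), a call lost without any 1 library (adjusted p of at most 0.0393). That call was also lost with the trends along GC content and length removed (limma-trend, adjusted p = 0.0122). In siSRF the log2 fold change of CDKN1A was -1.33, which was not called (limma-trend, adjusted p = 0.017). SESN2 fell in siIGF2BP1 by 1.34 and in siSRF by 0.77. ZMAT3 rose in siIGF2BP1 by 0.55 and in siSRF by 0.84. The SESN2 call in siSRF held only without siSRF replicate 2, and the ZMAT3 call in siIGF2BP1 was lost without any 1 library, with adjusted p-values of at most 0.018 and 0.0234. AEN, a p53-induced nuclease gene, rose in siSRF by 0.78. The members PMAIP1 and BBC3, known p53 targets, went in opposite directions in siSRF by their means, and only PMAIP1 passed the test.

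Of 16 tested NF-kB subunits and targets, 1 fell in siIGF2BP1 (3.57% of all genes). In siSRF 1 rose and 1 fell (6.85% and 5.34% of all genes). The gene that fell in siIGF2BP1 was CXCL8, encoding interleukin 8, from 48.1 to 58.8 FPKM in siC to 14.6 to 15.9 (log2 fold change -1.825, limma-trend, adjusted p = 0.00018). CXCL8 stood at 66.6 to 74.1 FPKM in siSRF. TNFAIP2 fell in siSRF by 0.34, and BIRC3 was the gene that rose. The TNFAIP2 call held only without siC replicate 2 (adjusted p of at most 0.0197 without the others), and its difference was -0.117 with the trends along GC content and length removed. The list medians were -0.13 in siIGF2BP1 and 0.09 in siSRF. Of 6 tested genes for MCL1 turnover, USP9X, a deubiquitinase that stabilises MCL1 protein, rose in both depletions, by 0.30 and 0.33, but not with the trends along GC content and length removed (adjusted p = 0.379 and 0.144). Its call was lost without any 1 library in siIGF2BP1 (adjusted p of at most 0.0432) and held only without siC replicate 2 in siSRF (at most 0.0223 without the others).

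**Figure D4:**
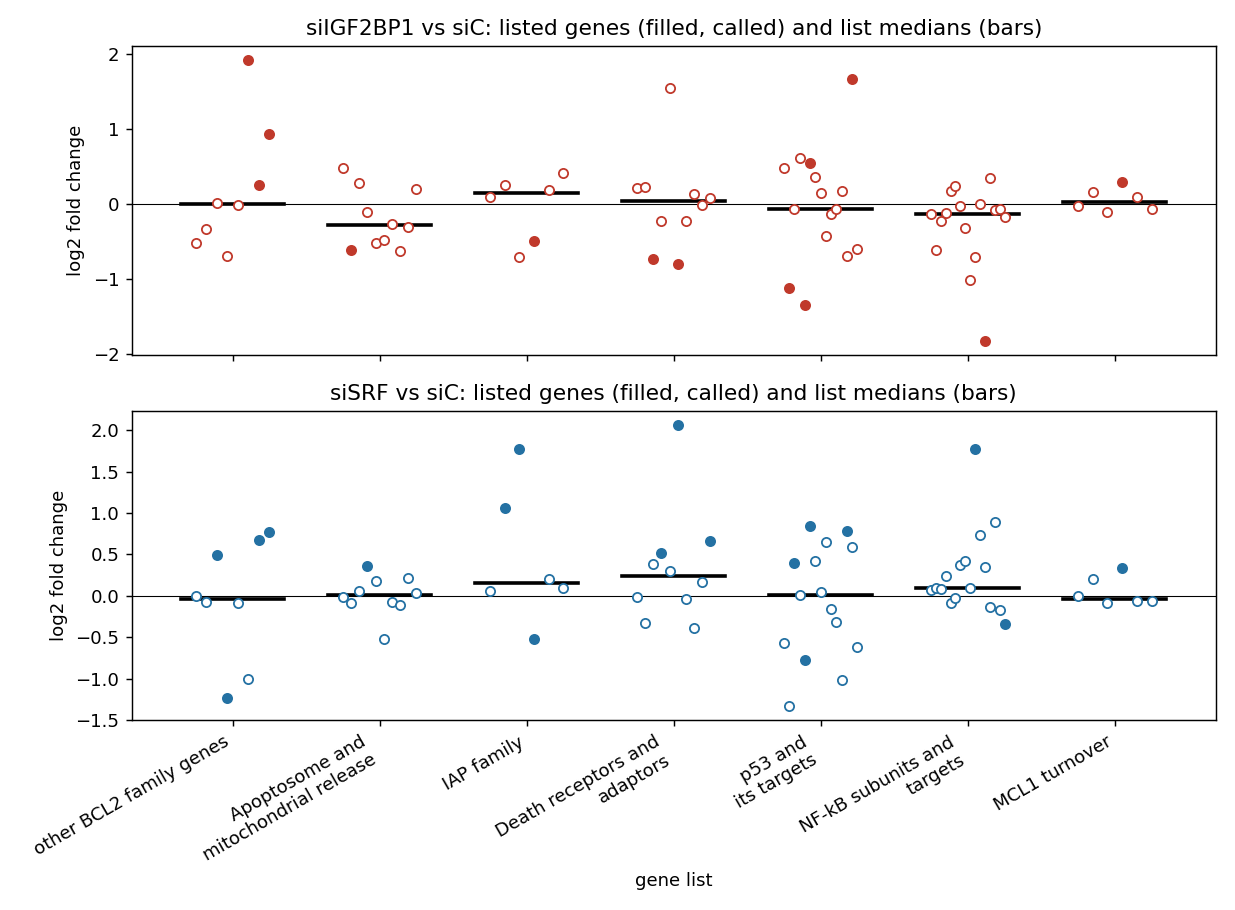
Log2 fold changes of the listed genes in siIGF2BP1 (upper panel) and siSRF (lower panel) against siC, 1 point per gene, filled where the adjusted p was at most 0.01, with bars at the list medians. TNFRSF10D, at 2.06, is the highest point in siSRF, and BMF, at 1.92, the highest called point in siIGF2BP1.

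The 5 genes whose pattern was most like that of BCL2A1 were SUDS3, PPP2R5A, FEZ2, TYW3 and ABL2. They were ranked by the Pearson correlation of log2(FPKM + 0.1) over the 9 libraries among 10379 protein-coding genes averaging 1 FPKM or more, and had r of 0.9976 to 0.9906. The 9 points are 3 groups of 3, so these values describe the order and distance of the groups. The groups of SUDS3, a subunit of a histone deacetylase complex, spanned 8.01 to 8.52 FPKM in siIGF2BP1, 10.9 to 11.3 in siC and 13.7 to 14.1 in siSRF. ABL2, a tyrosine kinase gene, had means of 20.7, 37.8 and 64.7 FPKM in the same order. In none of the 5 did the fold between siSRF and siIGF2BP1 reach that of BCL2A1.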

How the data were processed

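Total RNA of ES-2 cells (siC, siIGF2BP1 and siSRF, 3 libraries each, 72 h) was depleted of rRNA and sequenced on a NextSeq 500. Per the submitters' processing notes and the study's methods, the authors clipped reads with cutadapt 1.14, aligned them with HISAT2 2.1.0 to hg38, counted them on Ensembl genes with featureCounts 1.5.3 and normalized them with TMM in edgeR 3.18.1. The authors deposited FPKM per library in 2 tables, with gene lengths and columns of their own fold changes and p-values, which were not used. Both tables hold the same siC values. Between 6421764 and 9416175 reads per library were recovered from the FPKM values (100% whole within 0.05), which limits the precision of genes with few reads.

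Groups came from the sample titles. Each pair of groups was compared with limma 3.58.1 in R 4.3.3 (limma-trend on log2(FPKM + 0.1), genes averaging 0.1 FPKM or more over 6 libraries, Benjamini-Hochberg adjustment over all genes kept). The threshold for a call was an adjusted p of 0.01. The fits were tested on simulated reads of a single fixed spread, with changes placed only in genes with many reads. The detection of changes in genes with few reads was not tested there. Single members were also given a two-sided exact permutation test. Alternatives were other pseudocounts (1 and 0.01), filters, median-ratio rescaling, limma-voom on the recovered reads, robust eBayes, all 9 libraries in one fit, a replicate block, adjustment over protein-coding genes, a threshold of 0.05 and leaving out each library. A filter at 5 reads, and the removal of trends along GC content and gene length, were added after the data were seen.

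The members and gene lists were chosen with earlier results of these data known, and some genes planned for the lists, with the list that depended on one of them, are not reported here. All members and any BCL2 family gene may be named, and in each list and comparison up to 3 called genes with the largest changes that average 1 FPKM or more. Promoters, the microRNA and 3′UTRs came from RefSeq (GRCh38.p14) and GENCODE annotation of the same build, which is later than that used for counting.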

Additional observations from a re-analysis of the deposited data

Results flagged for a closer look

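The effects of the depletions differed from each other for the genes named here, each given as the log2 difference of siIGF2BP1 from siSRF. BCL2A1 had a difference of -4.74, which was not tested: every siIGF2BP1 library lay below and every siSRF library above siC. For the rest, the difference itself passed the threshold in limma-trend. Of the tested members these were MCL1 at -0.52 and PMAIP1 at -0.66, of which MCL1 had means on opposite sides of siC.

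Among the other BCL2 family genes, BCL2L2 differed by -0.52, BCL2L12 by -0.26, BCL2L13 by -0.47, BNIP3 by -0.42 and BMF by 2.92. BMF had 2 to 10 reads per siSRF library, so this value is imprecise. Among 10 tested death receptor genes and adaptors, 4 were called lower and 3 higher, against 11.2% and 8.82% of all genes. The lower were TNFRSF10D at -2.86, TNFRSF10A at -1.11, TNFRSF10B at -0.74 and CFLAR at -0.59. TNFRSF10C, at 1.24, had the largest difference of those higher. The inhibitor genes BIRC3 and BIRC2 differed by -2.47 and -0.81, and the NF-kB list genes CXCL8 and NFKB2 by -2.18 and -0.70.

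Of 10 tested mitochondrial genes, 5 were called lower and 0 higher, against 11.2% and 8.82% of all genes. Among them CYCS differed by -0.52, HTRA2 by -0.47, AIFM1 by -0.70 and VDAC3 by -0.52. Of 15 tested genes of p53 and its targets, 3 were called lower and 2 higher. Among these AEN differed by -1.47, TIGAR by -1.06 and TP53INP1 by 1.08. The calls of BCL2L12 and TP53INP1 were lost without any 1 library, with adjusted p-values of at most 0.0354 and 0.0221. With each of the 6 libraries left out in turn, BCL2L2, CFLAR and TNFRSF10C were called in only 1 of 6 fits. NFKB2 was called in 2, AIFM1 in 3 and BMF in 4 of these fits. Adjusted p-values of these 6 genes were at most 0.0342.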

How the results depend on the processing

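Against siC, the number of genes called in siIGF2BP1 was 1588 and became 3805 with limma-voom, 2475 with all 9 libraries in one fit, 3596 at a threshold of 0.05 and 2412 with the filter at 5 reads. In siSRF it was 2665 and became 5123 with limma-voom and 5205 at a threshold of 0.05. Between the depletions it was 4460 and became 6912 with limma-voom and 7132 at a threshold of 0.05. Leaving out 1 library gave 436 to 738, 946 to 1796 and 2885 to 3358 genes, with fewer libraries in the fit.

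Of the 9 tested members, 1 was called in siIGF2BP1. It was 2 at a minimum of 1 FPKM, with median-ratio rescaling, limma-voom, all 9 libraries, adjustment over protein-coding genes, a threshold of 0.05, the filter at 5 reads, and GC content and length taken out, and 0 in each fit without 1 library (0 to 0). In siSRF 1 was called, 2 with all 9 libraries, over protein-coding genes, with the filter at 5 reads and with GC content and length taken out, 3 at a threshold of 0.05, and 1 to 1 without any library. Between the depletions 2 were called, 3 with GC content and length taken out, 5 with limma-voom and the filter at 5 reads, 6 at a threshold of 0.05, and 2 to 2 without any library. The cause of these shifts was not tested.

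With the replicate number as a block (replicate block), 91, 501 and 2075 genes were called in siIGF2BP1, siSRF and between the depletions, and 0 members in siIGF2BP1. The labels share the numbers without saying whether equal numbers were cultured together. The deviations of same-numbered libraries from the group means had correlations of -0.0438 to 0.0186. No shared deviation was thus seen, which does not settle whether the libraries were paired.

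BCL2A1 kept its directions in every alternative, from -3.08 to -1.552 in siIGF2BP1 and from 1.683 to 2.122 in siSRF, with the pseudocount of 1 giving the smallest sizes. These directions were the reason for its choice, so the ranges describe the sizes and are no support for the directions. Changes of sign occurred for uncalled values near 0. With GC content and length taken out, BAX was 0.092 and BID 0.058 in siSRF, BAX -0.099 between the depletions, BCL2L13 -0.011 and BAD 0.160 in siIGF2BP1, and BCL2L12 0.098 and BAD 0.160 in siSRF. BCL2L2 in siSRF was -0.000 with a pseudocount of 1 and -0.014 with median-ratio rescaling. Leaving out 1 library gave BCL2L13 values of -0.006 to 0.048 and BAD values of -0.037 to 0.010 in siIGF2BP1, BID values of -0.097 to 0.000 and BCL2L2 values of -0.078 to 0.060 in siSRF, and BAX values of -0.056 to 0.063 between the depletions.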
